A study of Drosophila melanogaster with 2 samples.

Results

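The regions described here were the weak peaks of Dmrt99B-eGFP in the Drosophila embryo: those peaks of a pooled peak list whose interval shared no base with any peak of the thresholded list. They were therefore selected on pooled signal, and the replicates entered through the place of the cut. Every peak of the thresholded list had a higher pooled signal value than every other pooled peak. The thresholded list was cut on the irreproducible discovery rate (IDR), which falls as 2 replicates rank a peak more alike. Of 30000 pooled peaks, 20702 were weak by this rule, 7838 were IDR peaks and 1460 fell below the threshold but overlapped an IDR peak. The study was chromatin immunoprecipitation followed by sequencing (ChIP-seq) of whole mixed-sex Drosophila melanogaster embryos collected at 6 to 16 hours. There was 1 group, with 2 biological replicates that the labels number 3 and 4. Both came from 1 transgenic line with GFP fused to the C-terminal end of dmrt99B, and no group without the fusion was analysed here. The labels describe immunoprecipitation with an antibody against GFP, whereas their antibody field names dmrt99B. Whole embryos mix all cell types, so a weak peak in every cell and a strong peak in a few cells cannot be told apart.

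Dmrt99B belongs to the DM-domain transcription factors, the family of doublesex, whose zinc-binding domain contacts the minor groove of DNA. In a ChIP-seq experiment a peak is a place where the recovered fragments pile up, and its summit is the point of highest signal within it. Lists are usually made relaxed first, so that they include many peaks near background, and are thresholded afterwards by comparing replicates. The peaks below such a threshold are a mixture that a peak list alone does not sort.

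The 7-mer most frequent at weak summits relative to their flanks was CAGTGTA, so the sequence from 100 bp before to 100 bp after the summit is shown for 5 strong members that hold it. They are the 5 weak peaks of highest signal value that recurred in both replicates, had CAGTGTA in that window and lay outside untranslated and coding exons, on the arms considered for printing. All are dm6 plus-strand sequence from the RefSeq release 6 assembly, with CAGTGTA in capitals. The first, chrX:7791284-7791484, was intergenic, 13179 bp from the nearest protein-coding transcription start site (TSS), that of CG32718. The second, chrX:14471258-14471458, was intergenic, 8728 bp from the TSS of CG9411. The third, chr2L:19091407-19091607, lay in an intron of Lim3, which encodes a LIM-homeodomain factor of motor neurons. The fourth, chr3L:8853017-8853217, lay in an intron of dally, which encodes a heparan sulphate proteoglycan, and its nearest TSS was that of CG32026. The fifth, chr3R:5095536-5095736, was intergenic, 8564 bp from the TSS of corto, which encodes a chromatin-associated factor.
CG32718 window: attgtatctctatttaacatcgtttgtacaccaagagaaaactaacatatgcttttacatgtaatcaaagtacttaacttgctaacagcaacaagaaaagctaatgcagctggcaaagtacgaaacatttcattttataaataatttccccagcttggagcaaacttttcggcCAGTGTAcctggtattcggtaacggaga
CG9411 window: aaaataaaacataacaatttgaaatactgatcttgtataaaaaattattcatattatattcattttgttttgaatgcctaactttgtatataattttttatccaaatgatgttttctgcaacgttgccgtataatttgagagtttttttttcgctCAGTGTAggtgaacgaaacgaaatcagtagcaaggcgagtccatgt
Lim3 window: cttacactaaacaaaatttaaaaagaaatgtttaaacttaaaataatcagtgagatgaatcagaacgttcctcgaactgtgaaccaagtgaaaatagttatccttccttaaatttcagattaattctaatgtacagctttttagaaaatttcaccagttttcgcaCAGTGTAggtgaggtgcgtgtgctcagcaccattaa
CG32026 window: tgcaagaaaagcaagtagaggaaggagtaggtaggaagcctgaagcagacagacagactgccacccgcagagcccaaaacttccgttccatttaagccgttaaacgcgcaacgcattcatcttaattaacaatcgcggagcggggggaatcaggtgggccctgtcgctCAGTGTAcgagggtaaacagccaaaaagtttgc
corto window: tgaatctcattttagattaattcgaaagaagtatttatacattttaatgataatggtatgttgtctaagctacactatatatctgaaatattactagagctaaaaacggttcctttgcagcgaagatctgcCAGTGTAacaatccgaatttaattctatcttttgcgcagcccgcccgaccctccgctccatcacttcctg
In all 5 windows the 7-mer read forward and lay to the right of the summit, which is the central base, with its middle base 34 to 76 bp away. The signal values of the matched peaks were 143 in replicate 3 and 24.5 in replicate 4 at CG32718, 109 and 56.1 at CG9411, and 121 and 48.1 at Lim3. They were 124 and 53.7 at CG32026 and 127 and 48.8 at corto. The scale of the signal value may differ between lists, so values are comparable within a replicate only.

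Windows with other features, chosen after their values were seen, are shown for contrast. The first pair holds GGTCACACT, known as core promoter motif 1 and bound by the factor M1BP, in weak promoter peaks with no exon base in the window. The window chr3L:2589181-2589381 had its summit 133 bp upstream of the TSS of dos, which encodes an adaptor of receptor tyrosine kinase signalling, and chr2L:16719729-16719929 lay 103 bp upstream of Cyt-c-p, a cytochrome c gene. The last window, chrX:12906089-12906289, upstream of CG4404, holds TACACTG, the reverse complement of CAGTGTA, but its summit lay 235 bp from the nearest summit of replicate 3 and 228 bp from that of replicate 4. Capitals mark these motifs.
dos window: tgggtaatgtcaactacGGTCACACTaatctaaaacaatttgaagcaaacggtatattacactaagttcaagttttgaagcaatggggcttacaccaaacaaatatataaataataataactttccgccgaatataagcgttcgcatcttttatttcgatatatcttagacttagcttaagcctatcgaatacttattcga
Cyt-c-p window: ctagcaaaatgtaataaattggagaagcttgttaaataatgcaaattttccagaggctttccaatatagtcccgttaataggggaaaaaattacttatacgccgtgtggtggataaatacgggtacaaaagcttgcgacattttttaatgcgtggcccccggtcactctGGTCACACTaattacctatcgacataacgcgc
CG4404 window: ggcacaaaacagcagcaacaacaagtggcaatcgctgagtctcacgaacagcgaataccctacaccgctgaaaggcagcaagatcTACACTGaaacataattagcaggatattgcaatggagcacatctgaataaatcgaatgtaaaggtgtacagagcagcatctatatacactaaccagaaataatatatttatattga

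Weak peaks covered a range of signal values just under the IDR peaks. Because the rule sorts on pooled signal, the values are a description. The signal value of weak peaks ran from 37.99 to 169 with a median of 64.2 and quartiles of 47.99 and 93.5, against a median of 341 in IDR peaks. At the boundary, the IDR peak of lowest signal ranked 7838 with 169.46 and the weak peak of highest signal ranked 7839 with 169.43. The authors' −log10 q had a median of 0.914 and ran up to 3.75. A −log10 q of at least 2 (q of 0.01 or less) was found in 3714 weak peaks (17.9%), and q of 0.05 or less in 6867 (33.2%). Nearly all intervals, 20624, were 424 bp wide. Merged, the weak peaks made 17794 separate intervals that covered 8215 kb, or 6.14% of the chromosome arms. Neighbouring members are therefore not all independent: 5716 summits (27.6%) had another weak summit within 500 bp.

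More than 95% of the weak peaks had a counterpart in at least 1 replicate, but just over 55% had one in each. The replicates' reads are part of the pool from which these peaks were called, so recurrence was not independent of the rule and is given without a test. A summit of replicate 3's relaxed list lay within 200 bp of 17498 weak summits (84.5%, 95% Wilson interval 84.0% to 85.0%). A summit of replicate 4 lay that close to 13821 (66.8%, 66.1% to 67.4%). Both replicates had one at 11513 weak summits (55.6%, 54.9% to 56.3%), replicate 3 alone at 5985 (28.9%), replicate 4 alone at 2308 (11.1%) and neither at 896 (4.33%, 4.06% to 4.61%). For comparison, 8.31% of the bases of the arms lay within 200 bp of a replicate 3 summit and 8.45% within 200 bp of a replicate 4 summit. Of the IDR peaks, 99.0% recurred in both, and of the overlapping peaks below the threshold 76.4% did. These intervals cover counting error over peaks, and read depth is unknown. All relaxed lists ended at 30000 peaks, so a region just below the end of a replicate's list counts as not recurring.

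Recurrence fell steadily with pooled signal. In the strongest decile, 2071 weak peaks, 96.4% recurred in both replicates. In the following deciles 92.1%, 86.3%, 76.7%, 65.6%, 54.6%, 38.9%, 24.6% and 12.995% did, and in the weakest 7.77%. In replicate 3 recurrence stayed at 96.2% or more through the fifth decile and ended at 48.5%, while in replicate 4 it fell from 97.5% to 37.1%. In the weakest decile 22.1% recurred in neither. Each replicate by itself had a summit near far more of the weakest decile than the 8.31% and 8.45% of arm bases near its summits. The pool was made from the same reads, so this comparison says nothing of agreement between the replicates.

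**Figure D1:**
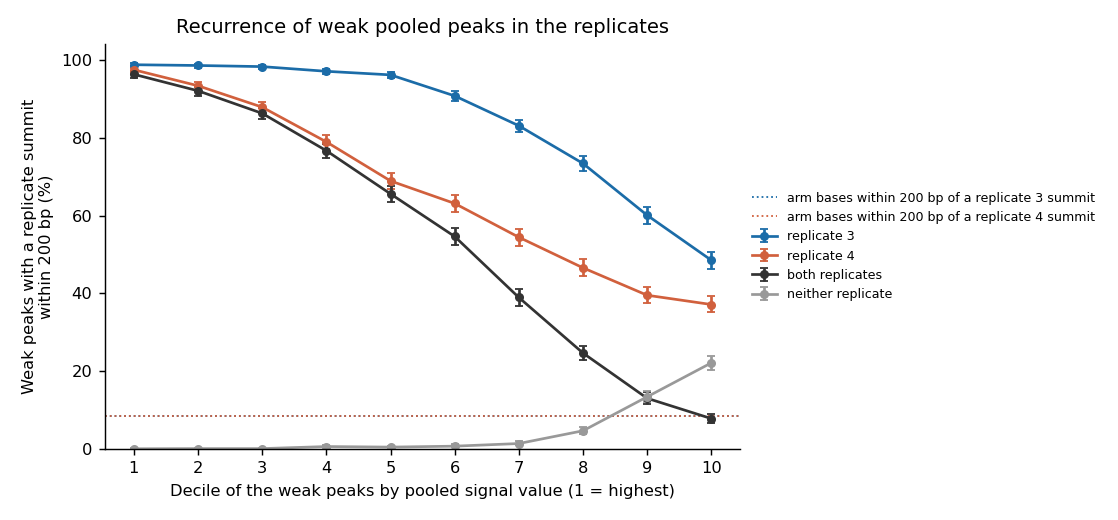
Share of weak peaks (y axis, %) with a replicate summit within 200 bp, by decile of the weak peaks from highest to lowest pooled signal value (x axis). Points are shares, bars 95% Wilson intervals and dotted lines the share of arm bases within 200 bp of a summit of each replicate. The share recurring in both replicates falls from 96.4% to 7.77%.

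The replicate peaks that matched weak peaks sat in the middle of the replicates' own lists. In replicate 3 the matched peak had a median rank of 17749 of 30000, and 236 (1.35%) ranked among the 7838 strongest. In replicate 4 the median rank was 16659, and 568 (4.11%) were among the 7838 strongest. In the strongest decile of weak peaks the median rank of the match was 9226 in replicate 3 and 10023 in replicate 4. Matched summits lay closer in replicate 3, with a median distance of 7 bp, than in replicate 4, with 34 bp. Over the 11513 weak peaks recurring in both, the signal values of the replicates had a Spearman rho of 0.443 and, on the log2 scale, a Pearson r of 0.43. These points share their pooled selection and the genome's composition. The median signal value was 60.1 in replicate 3 and 25.9 in replicate 4. These medians stand on 2 scales and are not compared.

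The 896 members found in neither replicate were mostly the weakest, and 735 of them (82.0%) belonged to the lowest 2 deciles. Their median distance to the nearest summit was 1110 bp in replicate 3 and 1044 bp in replicate 4. For 627 (70.0%) the pooled interval shared no base with any peak of either replicate. The median signal value was 41.5 in the 896, 45.6 in those found in replicate 4 alone, 51.8 in those in replicate 3 alone and 84.97 in those in both.

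The 12 weak peaks of highest signal value lay between 169.0 and 169.4, and all 12 recurred in both replicates. The strongest, chr3R:18841624-18842047, was in an intron of Octalpha2R, an octopamine receptor gene. It had 113.5 in replicate 3 and 56.1 in replicate 4. The next was in an intron of Pgant5, a gene for an enzyme that starts mucin-type glycosylation, with 117 and 15.8, ranks 8400 and 26238. This was the lowest value and rank of replicate 4 among the 12. The others with known products lay 17775 bp upstream of DIP-gamma, a neuronal cell-surface protein gene, in an intron of oc, which encodes a homeodomain factor of head patterning, in an intron of Spn, which encodes the phosphatase-binding scaffold spinophilin, and at the promoter of tmod, which encodes the actin-capping protein tropomodulin. The peak nearest to CG13332 was in an intron of Vmat, the vesicular monoamine transporter gene, and that at the promoter of CG14419 was inside kirre, a gene of myoblast fusion. The remaining peaks lay nearest to CG30395, CG2256, CG14269 and CG32718. Ranks of the 12 ran from 6954 to 9371 in replicate 3, where the signal values were 104.0 to 143, and from 7085 to 26238 in replicate 4, where they were 15.8 to 57.7. The largest rank numbers in replicate 4 were 26238 at Pgant5 and 16961 near CG32718.

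Most weak peaks lay within 10 kb of an IDR peak. The share of arm bases that close to an IDR interval was not computed. The distances are therefore a description, and do not show that weak peaks lie nearer than other positions. The distance from summit to nearest IDR interval had a median of 3414 bp with quartiles of 1407 and 8996 bp. It was under 1000 bp for 3341 (16.1%) and over 10 kb for 4702 (22.7%). Recurrence in both replicates was 59.3% within 1 kb and 51.8% beyond 10 kb, with median signal values of 67.96 and 59.98. Density ranged from 179 weak peaks per Mb on 2L, 169 on 3L and 155 on X to 144 on 3R and 135 on 2R. The small chromosome 4 held 33, or 24.5 per Mb. Recurrence in both was 54.5% to 57.3% on every arm, so the arms differed in number of weak peaks more than in their recurrence. In annotated transposable elements lay 60 weak summits (0.290%), against 5.93% of arm bases and 0.242% of IDR summits.

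Weak summits were found in promoters less often, and in introns, intergenic sequence and coding exons more often, than IDR summits. A summit within 500 bp of a TSS was called a promoter summit, and the other classes came in turn from untranslated regions, coding and other exons, introns and the rest. Promoters held 3293 weak summits (15.9%) against 29.1% of IDR summits, a difference of -13.2 percentage points (Newcombe 95% interval -14.3 to -12.1). Promoters made up 13.1% of arm bases. Introns held 10596 (51.2%) against 47.3% (difference 3.84, 2.54 to 5.13), and intergenic sequence 5863 (28.3%) against 20.5% (difference 7.81, 6.71 to 8.88). Introns made up 39.6% of arm bases and intergenic sequence 27.4%, close to its weak share. Coding exons held 226 weak summits (1.09%) against 0.230% of IDR summits (difference 0.862, 0.674 to 1.04), while they made up 13.8% of the bases. The 3′ UTR held 1.40% of weak summits, the 5′ UTR 0.773% and other exons 1.33%.

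**Figure D2:**
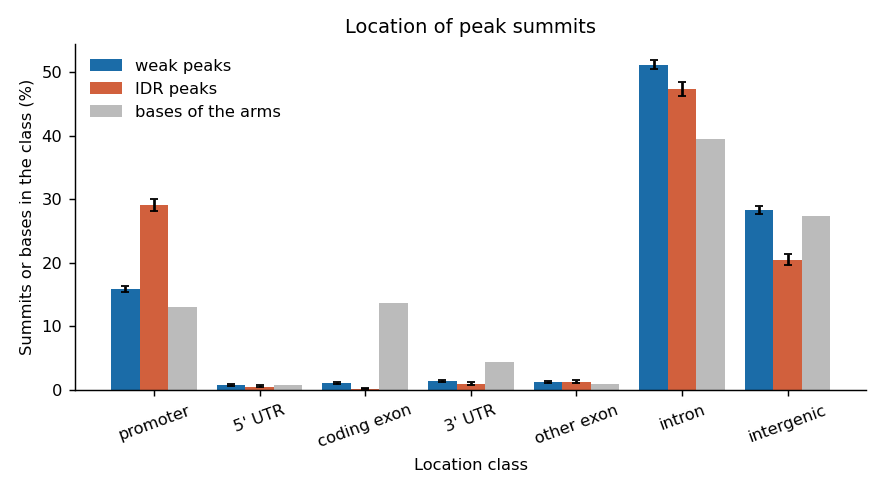
Share of summits or of arm bases (y axis, %) in each location class (x axis) for weak peaks, IDR peaks and the bases of the arms, with 95% Wilson intervals on the peaks. Promoters hold 15.9% of weak and 29.1% of IDR summits, and coding exons 1.09% and 0.230%.

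Location shifted with strength within the weak peaks. Promoters held 21.8% of the strongest decile and 11.8% of the weakest, which is below the 13.1% of bases, and coding exons 0.386% and 1.93%. Weak peaks recurring in both replicates lay in promoters more often than the rest, at 17.5% and 13.9% (difference 3.63, 2.64 to 4.62), and in coding exons less often, at 0.695% and 1.59%. The recurring peaks also had the higher signal. Among the 10351 weak peaks of higher signal the promoter share was 18.7% in those recurring in both and 19.2% in the others (difference -0.495, -2.59 to 1.49). Among the weaker 10351 it was 13.8% and 12.7% (difference 1.18, -0.262 to 2.68), and both intervals included 0. For coding exons the shares were 0.509% and 0.816% among the peaks of higher signal (difference -0.307, -0.871 to 0.0656). They were 1.25% and 1.77% among the weaker ones (difference -0.515, -0.989 to 0.0349), again with both intervals including 0. Around the TSS, 1822 of the 3293 promoter summits (55.3%) were upstream. The median lay at -27 bp and the quartiles at -195 and 113 bp. Of IDR promoter summits 78.8% were upstream, with a median of -149 bp.

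Coding-exon members were few and mostly weak, with a median signal value of 49.9 and recurrence in both replicates in 35.4%, against 61.3% in promoters. The 5 strongest, named here after their values were seen, all recurred in both. They lay in ftz-f1, a nuclear receptor gene (signal value 163), CG43901 (159), Sema2a, which encodes a secreted axon guidance protein (156), CG1986 (144) and an exon of CG42327 (139), whose nearest TSS was that of CG14715. The GC content of the windows, which reached 100 bp to each side, was, at coding-exon summits, 53.4% ± 6.92 (SD, n = 226), against 40.4% ± 8.33 over all weak summits.

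Of 14 chosen motifs, 8 were more frequent at weak summits than in a window 1000 bp to the right and 1 was less frequent, at an adjusted p under 0.05. Over all 8192 7-mers tested in the same windows, 532 (6.49%) were called higher and 555 (6.77%) lower. Among the 14, CAGTGTA had been ranked first by an earlier search of IDR peaks of these same data. CAGTGTA was found at 747 summits (3.61%) and 382 flanks (1.85%). Its log2 ratio was 0.97 (exact McNemar test, adjusted over 14 motifs, p = 3.0e-27). CACTGAG followed with 749 and 420 (0.83, adjusted p = 8.2e-22, exact). The reverse complement of CACTGAG ends in CAGTG, the first letters of the leading 7-mer, and 152 windows held both. The promoter motif M1BP motif 1 was at 88 summits and 29 flanks (1.60, adjusted p = 8.2e-08, exact), the forkhead motif TGTTTAC at 1163 and 892 (0.38, adjusted p = 4.5e-09, exact), and GAGAGAG, the site of GAGA factor, at 761 and 617 (0.30, adjusted p = 1.5e-04, exact). The simple repeat CACACACA was at 1309 and 1097 (0.25, adjusted p = 2.1e-05, exact). Of the flanking windows 4727 (22.8%) were centred within 200 bp of a pooled summit, so some flanks were peaks themselves, here and in the counts over all 7-mers. These tests count windows and say nothing of the spread between embryos.

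DM core, ACAATGT, the site bound by DM-domain proteins, was not detectably enriched: 653 summits (3.15%) and 628 flanks (3.03%) held it (log2 ratio 0.06, adjusted p = 0.54, exact McNemar test). IDR summits held it in 3.99%, a difference of -0.839 percentage points (-1.35 to -0.359). TATCGATA, the site of the core promoter factor DREF, was at 124 summits and 85 flanks (0.54, adjusted p = 0.014, exact), and a run of 8 A at 3014 and 2846 (0.08, adjusted p = 0.025, exact). The homeodomain core TAATTA was less frequent at summits, 2734 against 2965 (-0.12, adjusted p = 0.0021, exact). The TATA box (TATAAAAG), the E-box CACGTG, the Runx site AACCACA and the GATA factor site AGATAAG gave adjusted p between 0.072 and 0.57 by the exact test.

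Against IDR peaks, some motifs had another direction. CAGTGTA was in 8.42% of IDR windows, so the weak share was lower by 4.81 percentage points (-4.81, -5.49 to -4.16). TAATTA was above its flanks in IDR windows (log2 ratio 0.43) and below in weak ones (-0.12). GAGAGAG and CACACACA were below their flanks in IDR windows (-0.45 and -0.67) and above in weak ones (0.30 and 0.25). In shares of windows, CACACACA was at 6.32% of weak and 3.37% of IDR summits (difference 2.95, 2.42 to 3.46) and TAATTA at 13.2% and 18.98% (difference -5.78, -6.77 to -4.81). GC content moved with these: weak windows averaged 40.4% and their flanks 41.4% ± 8.34 (SD), a difference of -1.07 points, whereas IDR windows averaged 33.95% and their flanks 41.3%. The part of base composition in the motif differences was not tested.

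CAGTGTA followed peak strength. It was in 6.86% of windows in the strongest decile (5.85% to 8.03%), 3.33% in the fifth and 2.22% in the weakest (1.67% to 2.95%), while flanks held 1.45% to 2.66% in all deciles. In the sixth and the 3 weakest deciles the flank share lay inside the interval of the summit share. It was in 4.46% of windows recurring in both replicates and 2.54% of the others (difference 1.93, 1.43 to 2.42). Among the 10351 weak peaks of higher signal those shares were 5.11% and 3.44% (difference 1.67, 0.597 to 2.57), and among the weaker 10351 they were 2.54% and 2.33% (difference 0.209, -0.423 to 0.925). By location, promoters held it in 2.34% of windows, introns in 3.68% and intergenic sequence in 4.21%. M1BP motif 1 was mostly at promoters: 57 of its 88 windows were promoter windows, and there it was in 1.73% of summits and 0.243% of flanks. It was in 17 windows (0.737%) found in replicate 4 alone and in 11 (0.184%) found in replicate 3 alone. TATCGATA was at 62 summits and 13 flanks of promoter peaks, 36 and 45 of intronic ones and 24 and 24 of intergenic ones. For GAGAGAG these counts were 218 and 120, 372 and 328, and 140 and 138.

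**Figure D3:**
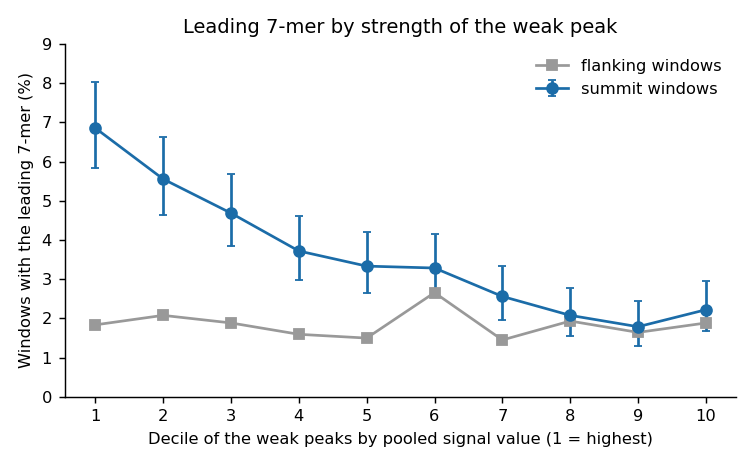
Share of windows (y axis, %) that hold the leading 7-mer at the summit and 1000 bp to its right, by decile of the weak peaks from highest to lowest signal value (x axis), with 95% Wilson intervals on the summit share. The summit share falls from 6.86% to 2.22%.

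CAGTGTA was placed to one side of the weak summits when read along its own strand. This was examined after the printed windows had been seen, in which the 7-mer lay to the right each time. Within 200 bp of weak summits there were 1379 matches at 1313 sites, and 1046 of them (75.9%, 73.5% to 78.0%) lay 3′ of the summit in the direction of the 7-mer. The remaining 333 lay 5′ (exact two-sided binomial test against equal numbers, adjusted over 39 such tests, p = 8.2e-85). The median position was 63 bp 3′ of the summit. In IDR peaks 1035 of 1180 (87.7%) lay 3′, with a median of 84 bp. In the windows 1000 bp to the right of weak summits the split was 371 and 413 (47.3% 3′, 43.8% to 50.8%). CACTGAG lay on the other side, as its reverse complement would: 1006 of 1407 matches (the 3′ share was 28.5%) were 5′ of the summit. For AGGGTAT, another leading 7-mer, the 3′ share was 58.6% (55.98% to 61.2%).

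Matches of CAGTGTA within 200 bp of the summit lay mostly 3′ in members with little support as well. The frequency against flanks was counted in shorter windows, which reached 100 bp to each side and so missed part of these matches. In those windows the 7-mer was not more frequent at summits than in flanks in every group. It was in 18 summit and 20 flank windows of the peaks found in neither replicate, and in 43 and 45 of those found in replicate 4 alone. In the 3 weakest deciles 159 of 247 CAGTGTA matches (64.4%, 58.2% to 70.1%) lay 3′ of the summit, adjusted p = 1.1e-05 by the exact test. Among the peaks found in replicate 3 alone the share was 66.6% of 299, in replicate 4 alone 68.9% of 90, and in both 79.1% of 943. Among the 896 peaks that recurred in neither replicate, 39 of 47 matches (82.98%, 69.9% to 91.1%) lay 3′, with a median of 95 bp (adjusted p = 9.0e-06, exact). The 3′ share of CACTGAG in these 896 peaks was 36.96% (24.5% to 51.4%, adjusted p = 0.12, exact) and that of AGGGTAT 50.9% (37.9% to 63.9%). In promoters the share was 75.3% and outside them 75.9%. With weak peaks restricted to those whose summit was 1000 bp or more from an IDR interval it was 76.6% of 1228.

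**Figure D4:**
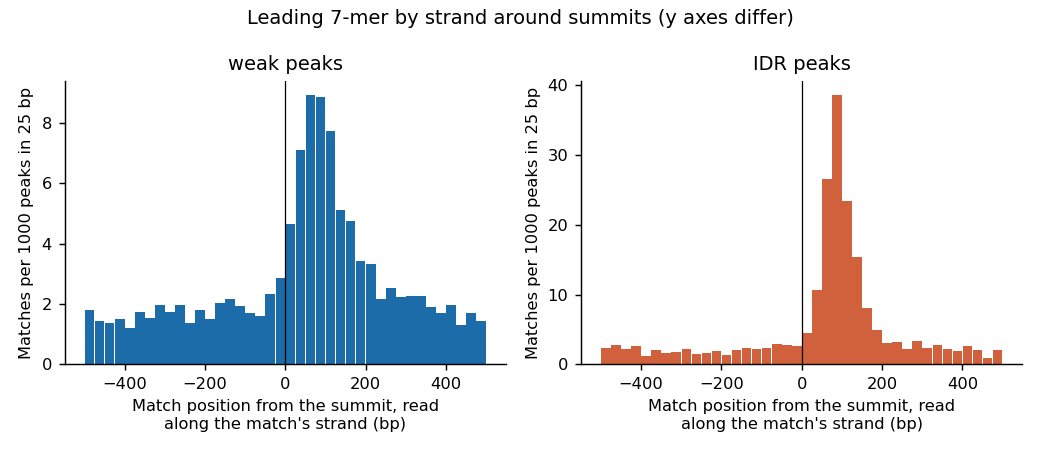
Matches of the leading 7-mer per 1000 peaks in bins of 25 bp (y axes, which differ in scale) by position from the summit (x axis, bp), with positive values 3′ of the summit along the strand of the match. Bars are counts over 20702 weak peaks on the left and 7838 IDR peaks on the right. The weak peaks reach 8.94 at 50 to 75 bp and the IDR peaks 38.7 at 75 to 100 bp.

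Among all 8192 7-mers tested, 532 (6.49%) were called higher at weak summits and 555 (6.77%) lower at an adjusted p under 0.05. CAGTGTA ranked first by log2 ratio (0.97), followed by AGTGTAC (0.85), TACCCTA (0.84), CACTGAG (0.83) and AGGGTAT (0.82), with adjusted p of 5.3e-08 or less for each by the exact binomial test. Apart from TACCCTA, each of these 5 was also among the leading 11 in IDR peaks, where CAGTGTA ranked first (log2 ratio 2.38). TACCCTA was at 310 weak summits and 173 flanks. It ranked 212 in IDR peaks, where it was at 150 summits and 82 flanks. Its log2 ratio there was 0.87, not lower than the 0.84 in weak peaks. ACAATGT, the DM core, ranked 2581 (adjusted p = 0.72, exact). The 5 with the lowest ratios were ATCCTCG (-1.01), CAGGATC (-0.95), AGGATCC (-0.94), GAGGATC (-0.92) and AGGATCG (-0.89), and all but the first contain AGGATC. Calls also differed with base composition. Of 448 7-mers with 1 G or C letter, 189 were called higher and 6 lower. Of 1344 with 5 such letters, 21 were higher and 132 lower, and of 64 with 7, 2 and 2. Flanks lay in coding exons more often than summits did, 951 (4.59%) against 226 (1.09%). The part of base composition or of exons in the calls was not tested. Among the pairs with both windows in introns or intergenic sequence, 616 7-mers were called, 383 higher and 233 lower, with CAGTGTA first.

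Weak peaks marked the promoters of 2935 of 13945 protein-coding genes (21.0%), counting a weak summit within 1000 bp of a TSS. IDR summits marked 2807 genes (20.1%). Of the genes with a weak summit, 1016 also had an IDR summit and 1919 (13.8% of all genes) did not. Of those 1919, 1346 had at least 1 weak summit that recurred in both replicates, which a gene with several weak summits meets more easily. Counted per summit, 55.6% of all weak peaks recurred in both. Of the genes with an IDR summit 36.2% had a weak one as well, against 17.2% of the other genes. A gene counted if any of its annotated TSSs had a summit that close. Genes with more TSSs could thus meet both criteria more easily, and this contrast was not adjusted for their number. By nearest TSS, weak summits were assigned to 4545 genes, of which 1332 received 1 summit and 524 received 10 or more. The 524 had a median length of 27.2 kb, and the 1332 one of 2.36 kb.

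The 8 genes with most assigned weak summits were 86.6 to 394 kb long. Shorter genes followed closely, among them comm (6.92 kb long) with 41 summits, vvl (4.78 kb) with 41 and Cyp12e1 (1.92 kb) with 40. They were named after their values were seen. Assignment was by nearest TSS, so the summits assigned to a gene need not lie inside it. The homeodomain gene hth, 132 kb long, whose product is a Hox cofactor, received 69 weak and 15 IDR summits. Of the 69, 35 recurred in both replicates and 55 lay in introns. Glut4EF received 66, the Wnt receptor gene fz2 62, and bun, which encodes a leucine zipper protein of the TSC22 family, 49. CG42238 also received 49, sick 46, the adhesion gene kirre 45 and Rbp6, an RNA-binding protein gene, 44. Recurrence in both replicates ran from 18 of 46 at sick to 39 of 62 at fz2. The strongest weak summits of the 8 genes had signal values of 123 to 168.

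In 11 gene lists, weak and IDR summits at promoters differed in their pattern. The lists had been chosen with earlier results of these data known, so their counts are a description. Of 20 synaptic and neuronal genes, 12 had a weak summit and 3 an IDR summit, and 9 had only a weak one. Neuroblast genes had 10 and 4 of 19, with 6 weak only, and muscle genes 10 and 7 of 20, with 6 weak only. Over all genes the shares were 21.0% weak, 20.1% IDR and 13.8% weak only. Notch pathway genes had 9 and 12 of 20, glial genes 5 and 7 of 10, and tracheal genes 6 and 7 of 11. All 5 glial genes with a weak summit also had an IDR summit. Ribosomal protein genes had 17 weak and 54 IDR among 92. Of 59 odorant receptor genes 3 had a weak summit, of 60 gustatory receptor genes 4, of 8 Hox genes 0 and of 4 DM-domain genes 0, while 3 DM-domain genes had an IDR summit.

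**Figure D5:**
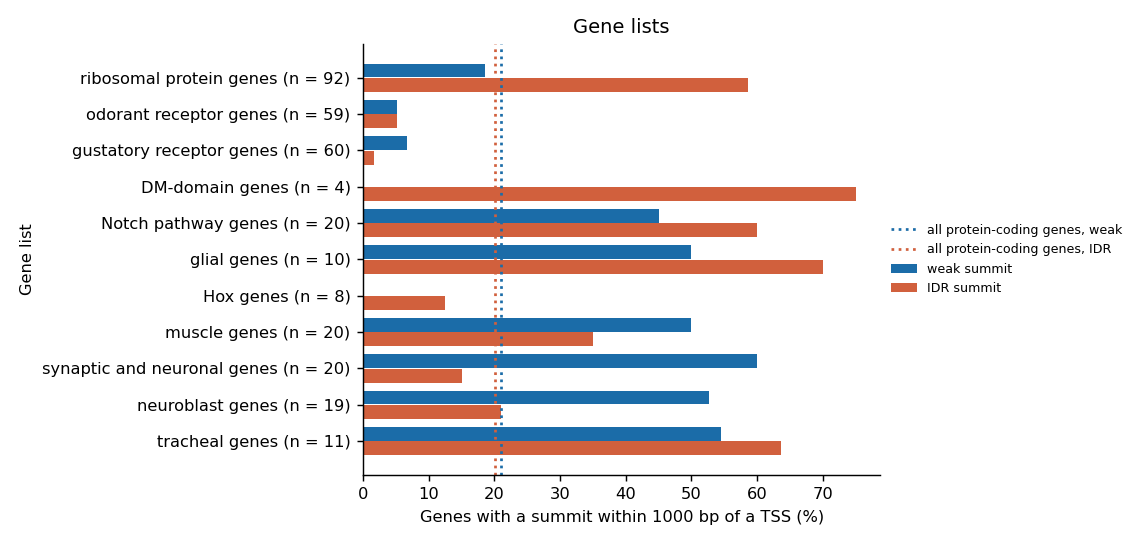
Share of the genes of each list (x axis, %) with a weak summit or an IDR summit within 1000 bp of a TSS, by gene list (y axis, with its number of genes). Dotted lines are the shares over all 13945 protein-coding genes, 21.0% and 20.1%. Synaptic and neuronal genes have a weak summit in 12 of 20 and an IDR summit in 3 of 20.

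The strongest weak promoter peak of a synaptic or neuronal gene was at futsch, which encodes a microtubule-associated protein of axons, at chrX:1411186-1411609. Its pooled signal value was 158, with 114 in replicate 3 and 42.9 in replicate 4, and no IDR summit lay at its TSS. Syx1A, the gene of the membrane-fusion protein syntaxin, had 112, with 97.5 in replicate 3 and no replicate 4 summit within 200 bp. Its nearest replicate 4 summit was 229 bp away. Syx1A had 2 weak summits within 1000 bp of a TSS, and the weaker one recurred in both replicates. The potassium channel gene Sh had 81.9, with 61.4 in replicate 3 and 23.98 in replicate 4. Sh had no IDR summit, and Syx1A had one of signal value 322. These were the 3 highest of the 12 genes with a weak summit. The median of the highest weak signal value per gene was 60.2 in the 12, against 86.6 over the 2935 genes. The lowest of the 12, brp at 41.1, recurred in neither replicate.

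Of the 10 neuroblast genes with a weak summit 4 also had an IDR summit, and of the 9 Notch genes 6 did, against 1016 of 2935 over all genes. The values that follow are those of the members with the highest weak signal in each list. The weak summit at numb, which encodes a Notch inhibitor handed to 1 daughter of a dividing neuroblast, had 148 in the pool, 113 in replicate 3 and 30.9 in replicate 4, and its IDR summit 2487. That weak peak also lay within 1000 bp of RpS28-like, the third ribosomal gene by signal. At pros, a homeodomain gene of neural differentiation, the weak summit lay at -40 bp from the TSS with 109, from 106 in replicate 3 and 20.8 in replicate 4, and there was no IDR summit. At brat, a translational repressor gene, the weak value was 86.8 and the IDR value 3126. The Notch coactivator gene mam had 161 and the ubiquitin ligase gene mib1 156, with IDR summits of 535 and 272. Of these genes pros alone had no IDR summit.

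Among the muscle, glial and tracheal genes with a weak summit, an IDR summit was present as well in 4 of 10, 5 of 5 and 4 of 6. The 3 with the highest weak signal in each list follow. Tm1, a tropomyosin gene, had 152 (IDR 854), Msp300, which encodes a nuclear-envelope protein of muscle, 109 (IDR 3208), and Mef2, a muscle transcription factor gene, 98.7 (IDR 288). The Mef2 summit was matched in replicate 3, at 90.5, and lay 294 bp from the nearest of replicate 4. Mef2 had 4 weak summits within 1000 bp of a TSS, and another of them recurred in both replicates. The glial genes were moody (133), a receptor gene of the blood-brain barrier, nrv2 (104), a sodium pump subunit gene, and the fibroblast growth factor receptor gene htl (77.3). The tracheal genes were pyd (157), a junction scaffold gene, ush (106), a GATA cofactor gene, and serp (68.3), a chitin deacetylase gene. Of these 9 genes serp alone had no IDR summit, and its weak summit had no replicate 4 summit within 4586 bp.

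The 4 gustatory receptor genes with a weak summit within 1000 bp of a TSS had no IDR summit there. The strongest were Gr21a (158) and Gr63a (101.5), which together form the carbon dioxide receptor of adult antennal neurons, and Gr97a (77.4). At Gr21a, chr2L:780809-781232, the summit lay at -255 bp from the TSS. It was matched in replicate 4 at 36.9, rank 11197, whereas the nearest summit of replicate 3 was 7897 bp away. At Gr63a, chr3L:3896651-3897074, the summit lay at -260 bp and was matched in both, at 39.3 and rank 23344 in replicate 3 and at 51.5 and rank 7988 in replicate 4. Both CO2 receptor genes thus ranked higher in replicate 4 or were matched there alone. Odorant receptor genes gave lower values, 48.4 at Or45a, 45.5 at Or45b and 42.8 at Or33c, each matched in 1 replicate. Among ribosomal protein genes the weak values were 158 at RpL7A and 152 at RpL23, each beside an IDR summit, and 148 at RpS28-like.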

How the data were processed

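ChIP-seq of Dmrt99B-eGFP was analysed from 4 peak lists in dm6 coordinates: a relaxed list per replicate, a pooled relaxed list and the IDR-thresholded list. Per the text listings deposited with the samples, the relaxed lists derive from the alignments and another file (not used here), and the thresholded list derives from them. The sources used here do not name the aligner or the caller and give no read totals, so depth is unknown. The lists hold, as deposited by the authors, a signal value (a score whose scale is not stated, comparable within a list only) and a −log10 q value per peak. Chromatin was sheared to a size range of 200 to 800, per the labels. Tests count peaks or windows of 1 group of 2 replicates.

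Summits were the interval start plus the summit offset. Locations used the gene annotation of Ensembl release 115 (transcripts of protein-coding and non-coding RNA genes) and sequences the RefSeq release 6 genome. Shares have 95% Wilson intervals and differences Newcombe intervals. Windows reaching 100 bp to each side of a summit were compared with windows 1000 bp to the right by exact McNemar tests (14 motifs, both strands) and exact binomial tests (7-mers in at least 20 windows, 0.5 added to each count for the log2 ratio), with Benjamini-Hochberg adjustment and a threshold of 0.05. The tests were checked on simulated windows. Software was scipy 1.17.1 under Python 3.11.15, with pandas 2.3.3, numpy 2.4.6 and, for plots, matplotlib 3.10.9.

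The members, motifs and gene lists were chosen with earlier results of these data known. Genes named were those nearest to the 12 strongest weak peaks, the 8 with most weak summits and up to 3 members of each list with the highest weak signal value. The 7-mers named were the 5 called with the largest log2 ratio in each direction, and the windows printed first were the 5 strongest under the stated rule, with arm 2R left out. Alternatives changed the matching distance, the length of the replicate lists, the strength and separation of weak peaks, windows, flanks and promoter width, or used 1 replicate's list alone.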

Additional observations from a re-analysis of the deposited data

How the results depend on the processing

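No paired analysis was possible because there was 1 group. Recurrence depended on its definition. Within 50 bp it was 70.3% in replicate 3, 42.4% in replicate 4, 28.4% in both and 15.7% in neither, and within 500 bp 88.6%, 75.8%, 67.4% and 2.98%. Against the 15000 strongest peaks of each replicate it was 31.7%, 28.7%, 17.2% and 56.8%, and in the 10351 stronger weak peaks 97.8%, 85.4%, 83.4% and 0.222%. At 1000 bp or more from IDR intervals it was 65.97% in replicate 4 and 54.9% in both. The promoter and coding-exon differences from IDR peaks kept their direction in all 12 alternatives, with intervals that excluded 0, and CAGTGTA stayed above its flanks in all 8. Its strand asymmetry, examined after seeing the data, held in 5 alternatives (71.7% to 81.4%). In the list of replicate 4 alone TACCCTA ranked first and CAGTGTA 3rd. DM core changed sign with the flank to the left (-0.061) and with either replicate's list alone (-0.040 and -0.031), always short of the threshold. The GC difference was -1.48 in shorter windows reaching 50 bp to each side, -0.966 with the flank to the left, -1.33 outside promoters, -2.21 in the 10351 stronger peaks and -1.09 to -1.0 with 1 replicate's list. With summit and flank both intronic or intergenic, an alternative chosen after seeing the data, 616 7-mers were called in place of 1087, over 14099 window pairs in place of 20702. The cause of these changes was not tested. Numbers of weak peaks and marked genes stayed within 1.5 times in every alternative.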
